A study of Danio rerio with 7 samples.

Results

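The transcripts described here were seen at the anterior cut edge (ACE) of amputated zebrafish tail fins at every time sampled. At the posterior cut edge (PCE) and in the control they were listed at 0 or were lower than at any ACE time. They are 150 of the 433380 features in the table of expression values, which are called clusters because their identifiers have the form "Cluster" followed by a pair of numbers. Each cluster was scored by its lowest value among the 3 ACE libraries minus its highest value among the 3 PCE libraries and the control, on the log2(FPKM + 1) scale, and the 150 highest scores were taken, so the members were chosen by these FPKM values. FPKM is the number of fragments per kilobase of cluster, scaled to the fragments of the library. The rule used all 7 libraries, so the excess in ACE is a description of the choice and no test is given for it.

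The tissue was zebrafish (Danio rerio) tail fin. The libraries were ACE at 24, 48 and 72 h post amputation, set against PCE at the same times and against 1 control whose labels give no edge and no time. Each of these 7 groups held 1 library. The labels give no strain, age, number of pooled fish, allele or drug treatment, although the study's title concerns calcineurin.

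An amputated zebrafish fin regrows from a blastema, a mass of proliferating cells that forms under the wound epidermis which closes the cut. The blastema restores bone rays, mesenchyme and skin with the correct proximal to distal order, and calcineurin, a calcium-dependent phosphatase, is known as a brake on fin outgrowth. A cut that leaves both an anterior and a posterior edge lets growth at the 2 sides be compared. None of the identifiers (0 of 433380) was found in the zebrafish reference tables, and the files pair them with no gene names. Functions, tissue markers and sequences of the members are therefore not analysed here.

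Few clusters had this pattern. The score ran from 4.29 for the first member to 1.81 for the last, with a median of 2.30. In all, 5 clusters scored at least 4, 31 at least 3 and 117 at least 2. Just inside the limit, the member at rank 149 scored 1.81 and its ACE levels were 4.79, 14.8 and 2.51 FPKM (24, 48 and 72 h in turn). Just outside, the cluster at rank 151 tied with the last member at 1.81 and was left out for its lower mean over the 7 libraries, 1.54 FPKM against 2.5 FPKM. The list therefore ends within a continuous slope of scores, and not at a gap.

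**Figure D1:**
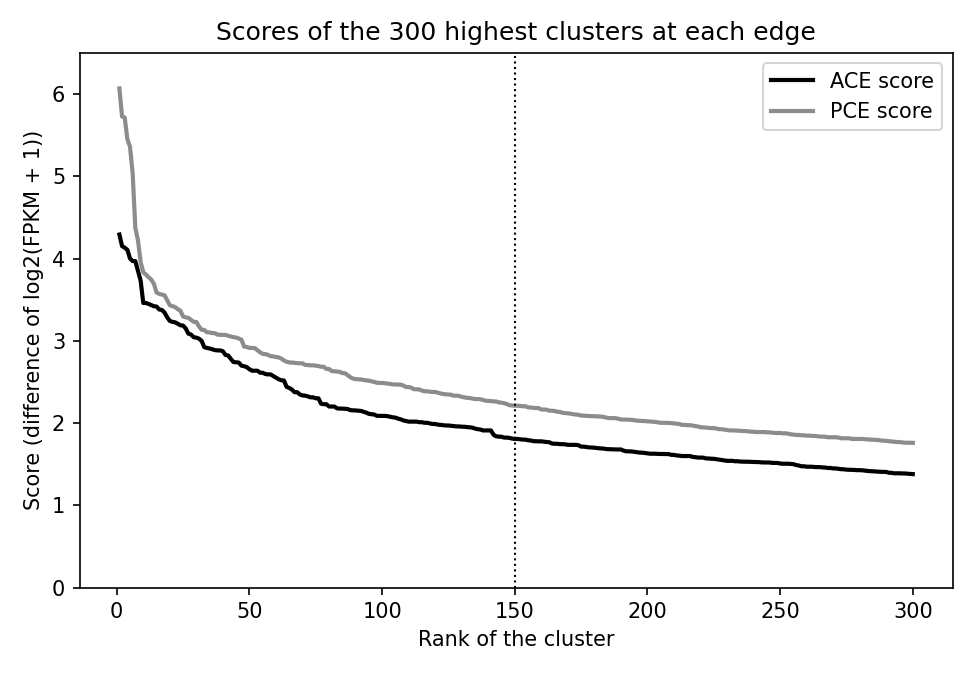
Score (y axis, difference on the log2(FPKM + 1) scale) against rank (x axis) for the 300 highest clusters at each edge. The black line is the ACE score, the grey line the same score with the edges exchanged (PCE), and the dotted line marks rank 150, where the ACE score is 1.81 and the PCE score 2.21.

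The members with the highest scores were listed at 0 in all 4 libraries outside ACE. In ACE at 24, 48 and 72 h, Cluster-118330.178646, with the highest score, had 44.67, 31.36 and 18.60 FPKM, and was listed at 0 in every PCE library and in the control. Cluster-118330.192859, the second, stood at 85.45, 50.03 and 16.78 FPKM in ACE and was likewise listed at 0 elsewhere. Both had their highest value at 24 h and their lowest at 72 h. No ACE value overlapped a PCE or control value, as the rule requires. The ACE values of the second were only 8, 5 and 2 of the steps described below. An ACE score of at least 1 was held by all 150 members, against 0.415% of the 122784 clusters with a mean of at least 1 FPKM over the 7 libraries. That background share describes the rule and nothing is read from it.

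**Figure D2:**
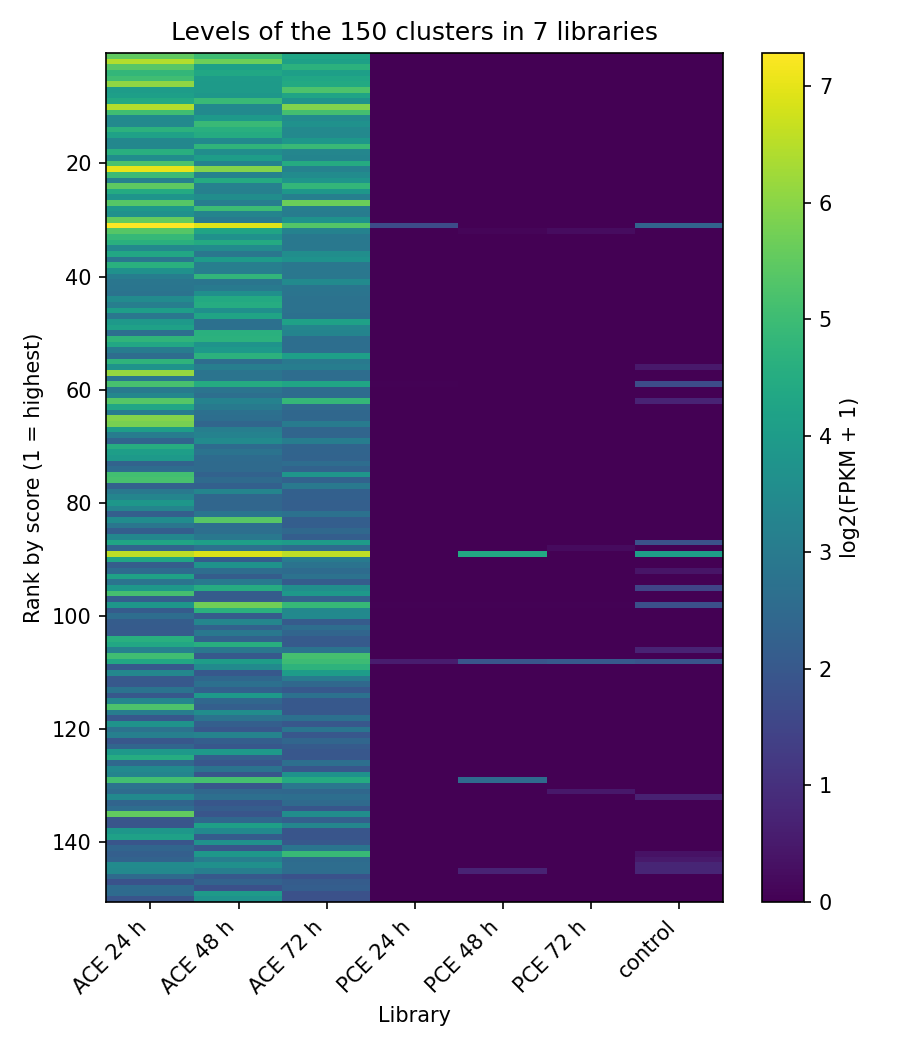
Level of each of the 150 members (rows, by rank of score) in the 7 libraries (columns), as log2(FPKM + 1) in colour. ACE columns hold values from 2.5 FPKM upward in every row, while 130 rows are at 0 in all PCE columns and in the control.

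Most members were of modest level. The median ACE level over the 150 members was 9.96 FPKM at 24 h, 7.65 FPKM at 48 h and 6.04 FPKM at 72 h, and the highest values were 154.78, 120.05 and 93.01 FPKM. The summed level of the members was 2755, 1893 and 1543 FPKM in the successive ACE libraries. It was 2.70, 28.4 and 3.82 FPKM in PCE and 36.2 FPKM in the control. Cluster-118330.104962 alone supplied 20.11 FPKM of the PCE 48 h sum and 15.81 FPKM of the control sum. The ACE sums made up 0.133%, 0.0984% and 0.0882% of the total FPKM of their libraries. In 19 members every ACE value reached 10 FPKM, and in 3 members every ACE value reached 20 FPKM. In a bulk library, fewer cells of a type and less RNA per cell cannot be told apart.

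To set the members beside clusters with the same floor in ACE, all clusters with at least 2.5 FPKM in every ACE library were used. This was the lowest value any member held there. These clusters numbered 22882 and are called ACE-expressed clusters below. Their medians were 10.77, 11.43 and 10.55 FPKM at 24, 48 and 72 h, each above the members' median, so the sets share a floor and not a level. Of these clusters 72.6% were above 0 in all 4 libraries outside ACE. Those listed at 0 in all 3 PCE libraries numbered 573, those listed at 0 in the control 1519, and those listed at 0 in all 4 numbered 131 (0.573%), of which 130 are members. Among the 573 clusters missing from every PCE library, 442 were above 0 in the control and 131 were not. Over all ACE-expressed clusters 6.64% were listed at 0 in the control. The rule used these same values. Any ACE-expressed cluster listed at 0 in all 4 libraries reaches the limit of the list, so the 130 follow from the rule. These counts are a description, and nothing is read from them.

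The time course within ACE was not fixed by the rule, which asks only that the lowest of the 3 times be high. The members were more often lower than higher at 72 than at 24 h. At 72 h, 48 members (32.0%) were lower than at 24 h by at least 1 on the log2 scale and 9 (6%) were higher. Over clusters with a mean of at least 1 FPKM these shares were 12.4% lower and 17.2% higher, and over ACE-expressed clusters 12.8% lower and 10.7% higher. The median difference, 72 minus 24 h, was -0.63 over the members, 0 over clusters with a mean of at least 1 FPKM and -0.04 over ACE-expressed clusters. Each time is 1 library, so the difference has no replicate check and no p-value.

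On the deposited values both intervals leaned to lower levels. From 48 to 72 h lower and higher counts were near equal when the control was left out or the libraries were scaled by a common step. Both settings are given below. At 48 h, 43 members (28.7%) were lower than at 24 h and 23 (15.3%) higher by at least 1, against 12.2% lower and 15.6% higher over clusters with a mean of at least 1 FPKM. At 72 h, 32 members (21.3%) were lower than at 48 h and 17 (11.3%) higher, against 12.3% lower and 13.5% higher. Over ACE-expressed clusters the shares were 9.11% lower and 10.7% higher for 48 against 24 h, and 11.7% lower and 7.56% higher for 72 against 48 h. In both intervals the members exceeded ACE-expressed clusters in both directions. When the 150 highest scores were taken again without the control, 27 clusters were lower and 30 higher for 72 against 48 h, and at a difference of 2 on the log2 scale 5 members were lower and 4 higher, so a direction for that interval is not given.

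**Figure D3:**
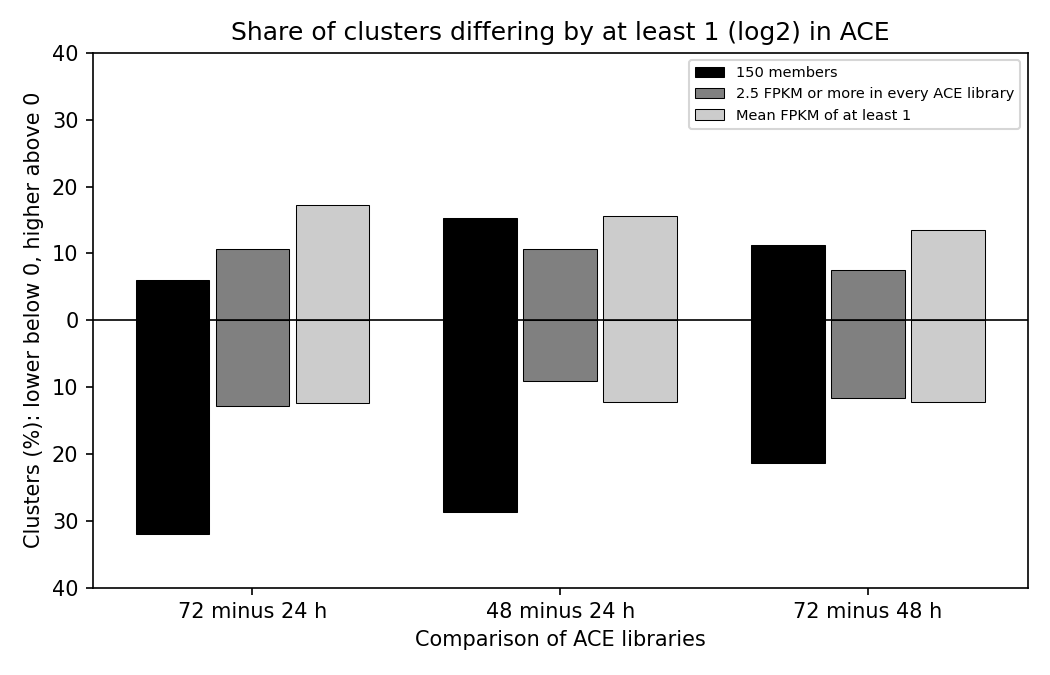
Share of clusters (y axis, percent) that were higher (bars above 0) or lower (bars below 0) by at least 1 on the log2(FPKM + 1) scale between 2 ACE libraries. Black bars are the 150 members, mid-grey bars the 22882 clusters at 2.5 FPKM or more in every ACE library and light bars the 122784 clusters with a mean of at least 1 FPKM. The longest black bar is the 32.0% of members lower at 72 than at 24 h.

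Some members with high values stood at whole multiples of a common step, which was noticed after their values were seen. Where whole reads are counted, clusters of equal length share such a step. Members at ranks 2, 10, 11 and 21 fitted steps of 10.68, 10.01 and 8.39 FPKM in the successive ACE libraries, each value within 0.02 FPKM. They held 8, 8, 3 and 12 steps at 24 h, 5, 1, 1 and 6 steps at 48 h, and 2, 7, 4 and 1 steps at 72 h. How many reads a step stands for is unknown, and no counting error can be attached to these values. Differences between times in such members are therefore differences of a few steps in single libraries. Steps were sought only from ACE values of at least 10 FPKM that members shared. Lower members also shared values. Those at ranks 57 and 58 both had 6 and 5.03 FPKM at 48 and 72 h. Those at ranks 38 and 39 both had 7.63 and 6.38 FPKM there. How many low members stand at few steps was not counted.

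The step was smallest at 72 h, so an equal number of steps gives a lower FPKM there, by 0.35 on the log2 scale against 24 h and by 0.25 against 48 h. In 29 members (19.3%, against 4.96% of ACE-expressed clusters) the 48 and 72 h values were equal in steps within 3%. When the ACE libraries were scaled by these steps, a setting chosen after seeing the data, equal numbers of steps were set equal. For clusters of 1 length this takes out the scaling to the fragments of the library, so it is not a further normalization. At 72 against 24 h, 37 members (24.7%) were then lower and 12 (8%) higher by at least 1, against 7.36% and 17.8% of ACE-expressed clusters. For 48 against 24 h 40 (26.7%) were lower and 23 (15.3%) higher, against 7.70% and 12.4%. For 72 against 48 h 23 (15.3%) were lower and 22 (14.7%) higher, against 7.41% and 11.7%. The median difference over the members was then -0.31 for 72 minus 24 h and -0.01 for 72 minus 48 h, against 0.27 and 0.13 over ACE-expressed clusters. Counts thus still leaned lower at 72 against 24 h and at 48 against 24 h. At 72 against 48 h they were near equal, while ACE-expressed clusters leaned higher. The steps come from 4 members and need not apply to clusters of other lengths. Members at ranks 6, 7 and 9 fitted other steps, of 5.12, 14.67 and 4.10 FPKM in the successive ACE libraries, with the largest at 48 h. A common step found from a few members can thus be a multiple of the smallest step.

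The order of the 3 times is given both as deposited and scaled by the steps, which takes out the scaling to library size. On the deposited values the highest ACE value lay at 24 h in 75 members, at 48 h in 49 and at 72 h in 26, which is 50%, 32.7% and 17.3% of the members, against 33.5%, 36.8% and 29.7% of ACE-expressed clusters. Scaled by the steps, the members' shares were 45.3%, 31.3% and 23.3%, against 23.6%, 30.6% and 45.8%. The lowest ACE value, which sets the score, lay at 72 h in 79 members (52.7%, against 37.8%), but in 24 of these the 48 and 72 h values were equal in steps, and scaled by the steps it lay there in 60 (40%, against 23.3%). Values stepped down at both intervals in 54 members (36.0%, against 19.3%) and up at both in 8 (5.33%, against 17.7%). Scaled by the steps, with differences within 3% left out, they stepped down in 20 (13.3%, against 9.33%) and up in 15 (10%, against 25.9%).

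The counts also differed between parts of the list. Among ranks 1 to 50, 14 members were lower and 2 higher at 72 than at 24 h by at least 1, with a median difference of -0.67. Among ranks 51 to 100, 21 were lower and 3 higher, with a median of -0.68. Among the last 50 ranks, 13 were lower and 4 higher, and the median was -0.13. Rank follows the score, which for members listed at 0 outside ACE is set by their lowest ACE value. The split thus uses the same values that are compared, and nothing is read from it.

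By a fixed rule each member was given 1 shape over the 3 times, on the deposited values. Shapes were not taken again after scaling by the steps. That scaling changed the members lower at 72 than at 24 h by at least 1 from 48 to 37. The downward shape (72 h below 24 h by at least 1, with no peak or trough at 48 h) was held by 44 members, and the level shape (all 3 times within 1) by 56. Both a peak and a trough at 48 h, at least 1 beyond the other times, were held by 13 members each, the upward shape by 8, and 16 had none of these. Among ACE-expressed clusters 61.6% were level, against 37.3% of members, and 12.2% were downward, against 29.3% of members. The upward shape was held by 10.3% of them, against 5.33% of members. None of these shapes was held by 9.79%, against 10.7% of members. The highest ACE value was 2.76 times the lowest in the median member and 1.88 times in the median ACE-expressed cluster, so members' values spanned more. The 2 sets share only the floor of 2.5 FPKM, not read number or cluster length, and the part of low read numbers in the span was not tested.

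The 44 downward members had median levels of 21.8, 7.03 and 4.56 FPKM at 24, 48 and 72 h. Cluster-118330.173698 was the member lowest at 72 h relative to 24 h, with 128.18, 60.03 and 8.39 FPKM, a difference of -3.78 on the log2 scale, or 12, 6 and 1 of the steps above. Cluster-118330.170872 was next, with 69.62, 6 and 5.03 FPKM and a difference of -3.55. On the log2 scale the larger part of the difference lay between 48 and 72 h in the first. In the second it lay between 24 and 48 h. Both were listed at 0 in PCE and control. The second shared its 48 and 72 h values with the member at rank 58, which had 6.33 FPKM at 24 h. No step was sought from values below 10 FPKM, so how few steps these values stand for is not known.

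The 8 upward members had medians of 4.38, 15.6 and 26.8 FPKM. Not all of them rose at each interval. The members at ranks 54, 98 and 137 were highest at 48 h, and the member at rank 7 was lowest then. They are thus not the same 8 that stepped up at both intervals. Cluster-118330.94461 stood at 3.64, 13.77 and 29.27 FPKM in ACE, a difference of 2.71, and at 0.28 FPKM in the control with 0 listed in PCE. Cluster-118330.26494 stood at 3.07, 10.18 and 25.37 FPKM, a difference of 2.70, and was listed at 0 elsewhere. In both the level at 48 h lay between the other times.

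The members with a peak at 48 h had medians of 5.30, 21.7 and 5.55 FPKM. Cluster-118330.225238 stood at 10.56, 40.93 and 3.53 FPKM, and its 48 h value exceeded the higher of the other times by 1.86 on the log2 scale. Cluster-118330.26610, the last of the 150, stood at 2.81, 12.21 and 2.5 FPKM with an excess of 1.79. Neither had a value outside ACE.

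The members with a trough at 48 h had medians of 34.0, 5.46 and 21.3 FPKM. Cluster-118330.222386 stood at 32.10, 3.13 and 34.02 FPKM, and its 48 h value lay 3.00 below the lower of the other times on the log2 scale. Cluster-118330.53792, at rank 10, stood at 85.45, 10.01 and 58.72 FPKM, with a shortfall of 2.44. These were 8, 1 and 7 of the steps above, so its 48 h value was 1 step in 1 library. The trough shape was held by 8.67% of members and 2.56% of ACE-expressed clusters, and the peak shape by 8.67% and 3.51%. The part of few steps in these shares was not tested.

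**Figure D4:**
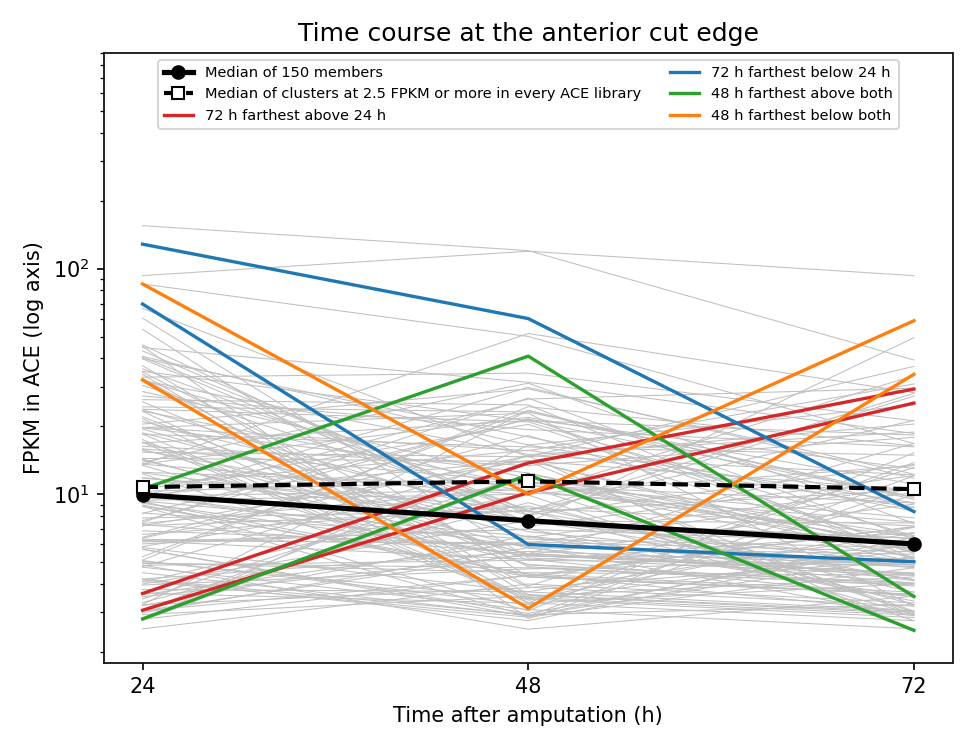
Level in ACE (y axis, FPKM on a log axis) at 24, 48 and 72 h (x axis). Grey lines are the 150 members and coloured lines the 8 named for their time course. The solid black line is the members' median (9.96, 7.65 and 6.04 FPKM), and the dashed line is the median of the 22882 clusters at 2.5 FPKM or more in every ACE library (10.77, 11.43 and 10.55 FPKM).

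Traces outside ACE were few. Of the 150 members, 130 (86.7%) were listed at 0 in every PCE library and in the control, and 20 had a value above 0 in at least 1 of them. The control held a trace of 16 members, PCE 24 h of 4, PCE 48 h of 6 and PCE 72 h of 5. Listed at 0 were thus 97.3%, 96.0% and 96.7% of members in PCE at 24, 48 and 72 h and 89.3% in the control, against 39.2%, 47.5%, 53.2% and 48.8% of clusters with a mean of at least 1 FPKM. The rule keeps these values low, so the shares are a description.

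The trace was in the control alone in 10 members, in PCE alone in 4 and in both in 6. The highest trace of a member ranged from 0.17 to 20.1 FPKM with a median of 0.67 FPKM, and 8 members had a trace of at least 1 FPKM. The lowest ACE value was 4.5 to 46.8 times the highest trace, with a median of 8.86 times. No trace was found among the first 30 ranks, and the first member with one was at rank 31. A trace lowers the score that sets the rank, so the rule favours first ranks without one.

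The highest traces belonged to members with high ACE levels, as the rule requires, since a trace must be outweighed. Cluster-118330.104962 stood at 93.05, 119.28 and 93.01 FPKM in ACE, at 20.11 FPKM in PCE 48 h and at 15.81 FPKM in the control, and was listed at 0 in PCE 24 h and PCE 72 h. Cluster-118330.128847 stood at 33.04, 34.43 and 21.17 FPKM in ACE and at 4.70 FPKM in PCE 48 h, with 0 listed in the other 3 libraries. In both, PCE was above 0 at 48 h and listed at 0 at 24 and 72 h. The member at rank 31 had the highest single value of the list, with 154.78, 120.05 and 39.34 FPKM in ACE, 2.18 FPKM in PCE 24 h, 0 listed in PCE 48 h and PCE 72 h, and 3.95 FPKM in the control. These 3 are the members at 20 FPKM or more in every ACE library, and all 3 had a trace.

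A value above 0 in all 4 libraries outside ACE was held by 2 members. The member at rank 108 stood at 19.80, 15.61 and 30.83 FPKM in ACE, with 0.47, 2.82 and 3.06 FPKM in PCE and 2.73 FPKM in the control. The member at rank 98 stood at 13.59, 51.55 and 28.20 FPKM in ACE, with 0.03, 0.03 and 0.02 FPKM in PCE and 2.43 FPKM in the control. In the first the PCE level was higher at 48 and 72 h than at 24 h, and in the second it was near 0 at every time.

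**Figure D5:**
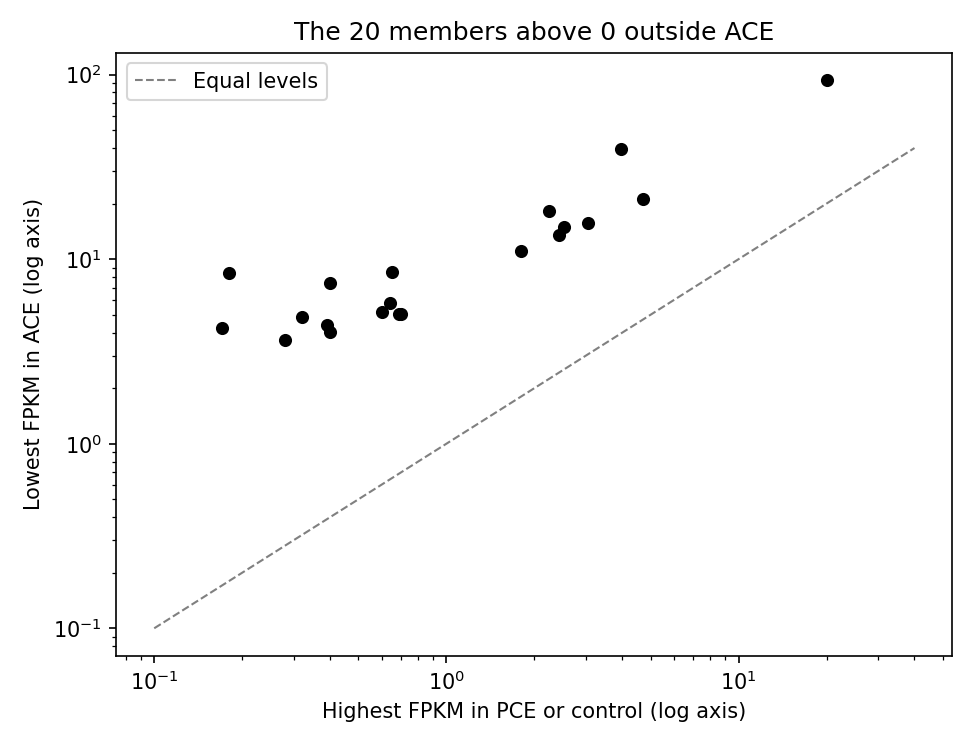
Lowest FPKM in ACE (y axis) against the highest FPKM in PCE or control (x axis), both on log axes, for the 20 members above 0 outside ACE. The dashed line marks equal levels, and every point lies above it by at least 4.5 times because the score requires a gap.

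Members with a trace were mostly level in time, as were ACE-expressed clusters. Of the 20, 14 had the level shape and 2 the downward shape, against 42 and 42 of the 130 members without a trace. Among ACE-expressed clusters 61.6% were level and 12.2% downward. Between 72 and 24 h, 2 of the 20 were lower and 2 higher by at least 1, against 46 and 7 of the 130. For ACE-expressed clusters these shares were 12.8% and 10.7%, so no trait particular to members with a trace is read from these counts. Members with a trace also had a higher floor in ACE, with a median lowest ACE value of 7.95 FPKM against 4.05 FPKM, which the rule favours because a trace must be outweighed. Shape and level were not separated here.

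The identifiers hold a further grouping, a first number shared by several clusters, whose meaning no label states. The most used first number was carried by 135 members (90.0%), against 62.0% of clusters with a mean of at least 1 FPKM and 98.2% of ACE-expressed clusters. The other 15 members had 15 different first numbers, and 13 of these numbers had no other cluster.

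The remaining 2 first numbers held 12 further clusters, and 0 of these had a positive ACE score. Positive scores were not counted over all clusters, but a score of at least 1 was held by only 637 of 433380. Nothing is therefore read from the 0. Of the 12 clusters, 2 were above 0 in ACE libraries only, and both share the first number of the member at rank 67. At 24, 48 and 72 h one had 0, 17.62 and 7.39 FPKM and the other 0.87, 0 and 0.83 FPKM. The member at rank 51 stood at 26.27, 24.89 and 5.22 FPKM in ACE and was listed at 0 elsewhere. The summed level of the 5 clusters with its first number was 35.1, 43.9 and 19.45 FPKM in the successive ACE libraries, against 42.9, 17.2 and 40.05 FPKM in PCE and 2.39 FPKM in the control. The anterior and posterior sums overlapped, so the pattern of the single cluster was not that of its group.

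The member at rank 67 stood at 15.66, 7.64 and 4.19 FPKM in ACE and was listed at 0 elsewhere. The 9 clusters with its first number summed to 17.6, 33.4 and 14.2 FPKM in ACE, against 4.52, 64.4 and 0.29 FPKM in PCE and 13.1 FPKM in the control. Here too the sums overlapped, through another cluster of the group that stood at 61.1 FPKM in PCE 48 h. Near-identical transcripts may be split between clusters, and a cluster seen at 1 edge need not be a gene seen at 1 edge.

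Among the 135 members with the most used first number, 1 pair had consecutive second numbers. It was formed by the members at rank 16, with 9.42, 10.02 and 13.41 FPKM in ACE and 0 listed elsewhere, and at rank 87, with 18.44, 16.22 and 14.90 FPKM in ACE and 2.53 FPKM in the control. Both had the level shape. The difference, 72 minus 24 h, was 0.47 on the log2 scale in the first and -0.29 in the second, as deposited. An equal number of steps differs by 0.35 between these times, so no opposite order is read from the pair.

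Levels of the 3 ACE libraries were only moderately related across the members. Pearson's r of log2(FPKM + 1) over the 150 members was 0.34 for 24 and 48 h, 0.50 for 24 and 72 h and 0.46 for 48 and 72 h. Over ACE-expressed clusters it was 0.85, 0.83 and 0.86. The range of levels differs between these sets, which alone changes r, and clusters of 1 library share its depth, so no p-value is given.

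The mirror list, the 150 clusters highest in PCE by the same score with the edges exchanged, had higher scores, from 6.07 to 2.21 with a median of 2.70. A PCE score of at least 1.81, the limit of the anterior list, was held by 281 clusters (0.0648% of all), against 151 for the ACE score (0.0348%). In the mirror list 79 clusters were lower and 10 higher in PCE at 72 than at 24 h by at least 1, but so were 38.5% and 16.9% of clusters with a mean of at least 1 FPKM, so its background leaned the same way. Its median levels in PCE were 22.0, 7.36 and 9.28 FPKM at 24, 48 and 72 h, and 126 of its 150 clusters were listed at 0 in ACE and control. Lower levels at 72 than at 24 h were thus more frequent than higher ones in both lists, and the difference between the lists was not tested. Which edge had more clusters past a score depended on the processing. A score of at least 1 was held by 885 clusters for PCE and 637 for ACE. PCE also had more with median-of-ratios scaling (1039 against 449) and quantile normalization (1051 against 864). With a pseudocount of 0.1 the counts were 2056 for PCE and 3108 for ACE, and ACE also had more without the control. It had more without any 1 ACE library too, but that loosens the ACE rule by construction, as leaving out a PCE library loosens the PCE rule.

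The libraries differ in ways that touch these counts. Reads per library are not stated in the table. Relative to 1 for the control, depth estimated from low values was 1.12, 0.917 and 1.12 in the successive ACE libraries. In PCE it was 0.793, 1 and 0.791. The estimates used 724, 1093 and 2358 clusters in ACE and only 145, 432 and 298 in PCE. Both values had to lie at 0.15 to 0.3 FPKM, which bounds each ratio and can draw the estimate toward 1. The common steps give another order of the ACE libraries, since the step at 24 h was 1.27 times that at 72 h. A step also depends on the length counted for a cluster, and which of the 2 gives the depth is not settled. The part of depth in the 0 values was not tested. The number of clusters above 0 was 122838, 143247 and 181371 in ACE, 122580, 115844 and 96680 in PCE and 170017 in the control.

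Membership rests on every library. When a library was left out and the 150 highest scores were taken again, 33, 62 and 52 members were kept without ACE 24 h, ACE 48 h and ACE 72 h, 108, 56 and 102 without PCE 24 h, PCE 48 h and PCE 72 h, and 39 without the control. Without PCE 24 h, the 42 clusters that entered had a median of 15.8 FPKM in that library. In the list taken without it, 50 clusters were lower and 8 higher in ACE at 72 than at 24 h. In the list taken without the control these were 40 and 16.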

How the data were processed

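The deposited table held FPKM values that the authors computed, with 1 column for each of the 7 libraries and values to 2 decimals. HISAT2 2.0.5, HTSeq 0.9.1 and edgeR are listed in the submitters' processing notes, which assign them no steps. The genome build and the making of the clusters are not given in the sources. Values were taken as log2(FPKM + 1), which makes differences of low clusters look smaller. A difference counted when it reached 1 on that scale. Members, comparison sets and naming rules were chosen with earlier results of these data known. Named were the 2 members with the highest score, the 2 with 72 h farthest above and below 24 h, the 2 with 48 h farthest above and below both other times, and the 2 with the highest value outside ACE. Each group held 1 library, so no test was made and differences have no replicate check. Relative depth was the median ratio to the control over clusters at 0.15 to 0.3 FPKM in both libraries and above 0 in at most 4. The other settings were a pseudocount of 0.1, median-of-ratios scaling, quantile normalization, other thresholds, leaving out libraries and, chosen after seeing the data, scaling the ACE libraries by a common step of some members. Python 3.11.15, numpy 2.4.6, pandas 2.3.3 and matplotlib 3.10.9 were used, and the scripts were tested on simulated data. The depth estimate was tested there without the limit to clusters above 0 in at most 4 libraries.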

Additional observations from a re-analysis of the deposited data

How the results depend on the processing

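Of 91 alternative values for 11 results, 60 stayed within 1.5 times the reported value and 31 did not. Taking the 150 highest scores again kept 131 members with a pseudocount of 0.1, 143 with median-of-ratios scaling, 142 with quantile normalization, 62 with a mean of at least 5 FPKM, and 33 to 108 when 1 library was left out. ACE scores of at least 1 numbered 637 (3108 with a pseudocount of 0.1, 141 with a mean of at least 5 FPKM, 873 to 2783 without 1 library). PCE scores of at least 1 numbered 885 (2056, 240 and 984 to 4905), so the pseudocount of 0.1 and leaving out the control turned round which edge had more. Leaving out any ACE library did so too, but it loosens the ACE rule by construction, as leaving out a PCE library loosens the PCE rule. Leaving out the control loosens both rules, and the other causes were not tested. Median-of-ratios scaling and quantile normalization kept more for PCE (1039 against 449 and 1051 against 864). For 72 against 24 h in ACE, 1.5-fold gave 79 members lower and 21 higher, and 2 on the log2 scale 14 and 2. At 2 on the log2 scale, 21 were lower and 3 higher for 48 against 24 h, and 5 and 4 for 72 against 48 h, where 1.5-fold gave 49 and 32. Both scalings, the pseudocount and scaling by the common steps (chosen after seeing the data) kept all 6 time counts within 1.5 times. The last, which takes out the scaling to library size, left 23 lower and 22 higher for 72 against 48 h. ACE-expressed clusters then leaned higher there (7.41% lower and 11.7% higher). With members chosen again without PCE 24 h or without the control, the counts ran from 40 to 50 lower and 8 to 16 higher for 72 against 24 h, from 46 to 51 and 13 to 21 for 48 against 24 h, and from 27 to 33 and 16 to 30 for 72 against 48 h. Without the control, 72 against 48 h thus leaned higher (30) and not lower (27). Members listed at 0 outside ACE numbered 130 to 140 in every setting run. Those settings kept the list and could only keep or raise the 130, so nothing is read from its stability. The count of 0 positive scores among clusters sharing a first number did not move, and nothing is read from it. No paired analysis was possible because no result comes from a test: the labels give no replicate numbers, and matching the edges by time would test the contrast that chose the members.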
